A study of Rattus norvegicus with 6 samples.

Results

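The natriuretic peptide system was examined in RNA-seq data of rat neonatal cardiomyocytes, through the genes of the peptide precursors (Nppa, Nppb and Nppc), of their receptors (Npr1, Npr2 and Npr3) and of proteases that cut the precursors (Corin and Furin). Its members were the 8 rows of the count table that carry these gene names, and 3 rows of transcripts without an annotation, called unannotated rows, that overlap Npr2, Npr3 or Furin on the same strand. Together these are 11 of the 43035 features of the table. The cells came from hearts of Sprague-Dawley rats at postnatal day 1 according to the labels (1 to 2 days old by the study's methods). By those methods the digested cells were first left to settle, so that cells quick to attach stayed behind, and the rest were kept in primary culture with fetal bovine serum. One group received scramble siRNA (si-NC, 3 libraries) and the other an siRNA against the kinase DYRK1A (si-DYRK1A, 3 libraries), and RNA was taken 48 h after transfection. The labels name no other allele, drug or injury, and they describe the libraries of a group as biological replicates. Each library held 10325074 to 11921772 counts, so that a feature with 10 counts lies at about 1 CPM, the unit of counts scaled to a common library size.

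Natriuretic peptides are hormones of heart and vessel wall that lower blood volume and pressure. Nppa encodes the precursor of atrial natriuretic peptide (ANP) and Nppb that of B-type natriuretic peptide (BNP), both secreted by cardiomyocytes, highly expressed in the fetal and newborn heart and raised again in the stressed ventricle, whereas Nppc encodes C-type natriuretic peptide (CNP), a local signal best known from endothelium and growing cartilage. ANP and BNP bind the guanylyl cyclase receptor encoded by Npr1 and CNP binds that encoded by Npr2, both of which make cyclic GMP (cGMP), while the receptor encoded by Npr3 has no cyclase domain and clears the peptides. Corin is a membrane serine protease of cardiomyocytes that cuts the ANP precursor, and furin is a convertase that cuts the precursors of BNP and CNP.

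Nppa and Nppb are neighbours on the same strand of chromosome 5, and their promoters are shown because Nppa passed the test between the groups and Nppb did not. That contrast alone does not show that Nppa and Nppb differed in response, and the promoters are given as a description. Each sequence holds 250 bases before and 50 bases after the transcription start given by RefSeq on assembly GRCr8, for Nppa chr5:163711934-163712233 and for Nppb chr5:163699758-163700057, both on the plus strand. Promoters of 6 of the 8 members were found in that set (all but Npr2 and Furin). Capitals mark matches on either strand to the letters AGATAA and TGATAA (of GATA factors), AAGTG (of NKX2-5), AGGTGTG (of T-box factors) and TATAAA (of the TATA box) and to the CArG box of SRF. The CArG box was taken as CC, then 6 letters of A or T, then GG, and looser forms were not searched. No match overlapped another.
Nppa: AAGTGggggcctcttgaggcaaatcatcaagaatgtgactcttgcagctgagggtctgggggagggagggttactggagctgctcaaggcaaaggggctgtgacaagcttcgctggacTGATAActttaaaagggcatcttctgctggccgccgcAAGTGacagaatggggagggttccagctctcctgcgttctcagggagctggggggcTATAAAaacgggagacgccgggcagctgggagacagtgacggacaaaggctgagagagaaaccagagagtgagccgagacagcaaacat
Nppb: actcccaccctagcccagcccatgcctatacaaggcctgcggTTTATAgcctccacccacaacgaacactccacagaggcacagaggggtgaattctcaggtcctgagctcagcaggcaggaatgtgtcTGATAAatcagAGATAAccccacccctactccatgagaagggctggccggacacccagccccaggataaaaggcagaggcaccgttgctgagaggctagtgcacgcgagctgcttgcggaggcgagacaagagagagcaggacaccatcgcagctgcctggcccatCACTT
The Nppa promoter held TGATAA at bases -132 to -127 from the start, AAGTG at -250 to -246 and at -95 to -91, and TATAAA at -39 to -34. The Nppb promoter held TGATAA at -121 to -116, AGATAA at -110 to -105, AAGTG read on the other strand at 46 to 50 and TATAAA read on the other strand at -208 to -203. Neither held AGGTGTG or the CArG box in that exact form. Directly after its TGATAA the Nppa promoter reads ctttaaaagg, which is close to that form and was not counted. Before its start the Nppb promoter reads ggataaaagg on the plus strand, which is close to AGATAA and to TATAAA and was not counted either. Of the 33469 rat promoters of this length, 9.03% held TGATAA, 11.6% held AGATAA, 46.2% held AAGTG, 14.2% held TATAAA, 5.61% held AGGTGTG and 1.64% held the CArG box. These matches are letters in a window, and binding was not measured here.

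The row of the targeted gene did not check the labels. Dyrk1a had 3, 0 and 1 counts in si-NC replicates 1 to 3 and 2, 1 and 0 counts in the si-DYRK1A-labelled libraries. The unannotated row that spans it lay at 77.7 ± 3.22 CPM (SD, n = 3) and 82.4 ± 2.70 CPM (SD, n = 3), with a log2 fold change of 0.08 (95% confidence interval -0.04 to 0.20, adjusted p = 0.374 by edgeR). The row that spans Dyrk1a was thus not lower in the si-DYRK1A-labelled libraries. The direction of each difference below therefore rests on the labels. Such split loci are common in this table. Of 7379 protein-coding genes that an unannotated row of their strand overlaps, 73.4% stayed under 10 counts in all libraries, and so did 46.2% of the other 14871, so that a named row at 0 does not show that the gene was silent.

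Markers of cardiomyocytes were present but uneven, and several fall under unannotated rows. The named rows of Myh6, Tnni3, Myl2 and Mybpc3 were at 0, while the unannotated row over Myh6 and Myh7 lay at 134 ± 18.1 CPM and that over Tnni3 at 19.2 ± 3.68 CPM in si-NC (SD, n = 3). Actn2, the sarcomeric alpha-actinin, lay at 1289 to 1453 CPM in si-NC and at 1643 to 1708 CPM in the si-DYRK1A-labelled libraries. Ryr2, the calcium release channel of heart muscle, lay at no more than 1.09 CPM in its own row and in the unannotated row over it. Col1a1, a collagen gene typical of fibroblasts, was at 12630 to 16410 CPM and 10900 to 11290 CPM.

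In this table, Nppa rose and Nppb did not pass the test. Nppa had 74601, 93201 and 91314 counts in si-NC replicates 1, 2 and 3 and 105154, 107877 and 114839 counts in si-DYRK1A-labelled replicates 1, 2 and 3. After scaling by TMM (a factor per library that balances the bulk of genes) these were 7153, 7882 and 7635 CPM against 9248, 10160 and 9939 CPM. All si-DYRK1A-labelled libraries thus lay above all si-NC libraries. The means were 7557 ± 371 CPM and 9782 ± 475 CPM (SD, n = 3 each), a 1.29-fold difference (95% confidence interval 1.22 to 1.38). On the log2 scale the fold change was 0.37 with a standard error (SE) of 0.0433 (95% confidence interval 0.28 to 0.46, adjusted p = 3.71e-06 by edgeR's quasi-likelihood test over all 15513 features with enough counts). With any 1 library removed it was 0.33 to 0.41, with the adjusted p between 1.81e-06 and 0.000242 in the edgeR test. In bulk RNA, fewer cells of a type and less RNA per cell cannot be told apart, and this holds for every level given here.

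Nppa (ENSRNOG00000008176) lies on the plus strand of chromosome 5 of the assembly Rnor_6.0, from 164808323 to 164809705, and Nppb (ENSRNOG00000008141) from 164796185 to 164797531, with 10791 bases between them. Nppa alone took 0.722%, 0.793% and 0.766% of all counts in si-NC and 0.914%, 1.01% and 0.979% in the si-DYRK1A-labelled libraries. By FPKM, the authors' level per length, it ranked 2 in both groups, after the mitochondrial gene Mt-nd3 and before Actc1, the cardiac actin.

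Nppb had 15879, 16663 and 19468 counts in si-NC and 18891, 17179 and 18592 counts in the si-DYRK1A-labelled libraries. The scaled levels were 1523, 1409 and 1628 CPM against 1661, 1618 and 1609 CPM. The groups overlapped, since si-NC replicate 3 lay above replicates 2 and 3 of the other group. The means were 1520 ± 109 CPM and 1629 ± 28.1 CPM (SD, n = 3 each). On the log2 scale the fold change was 0.10 with an SE of 0.0461 (95% confidence interval 0.0045 to 0.20, adjusted p = 0.161 by edgeR), an interval that excludes 0 before the adjustment over all features. Without si-NC replicate 3 the difference passed the edgeR test, at 0.15 on the log2 scale (adjusted p = 0.0236), and without any other single library it did not (0.05 to 0.11). Over all 17 alternatives the adjusted p of Nppb was 0.0236 to 0.57, from edgeR, DESeq2 and limma.

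**Figure D1:**
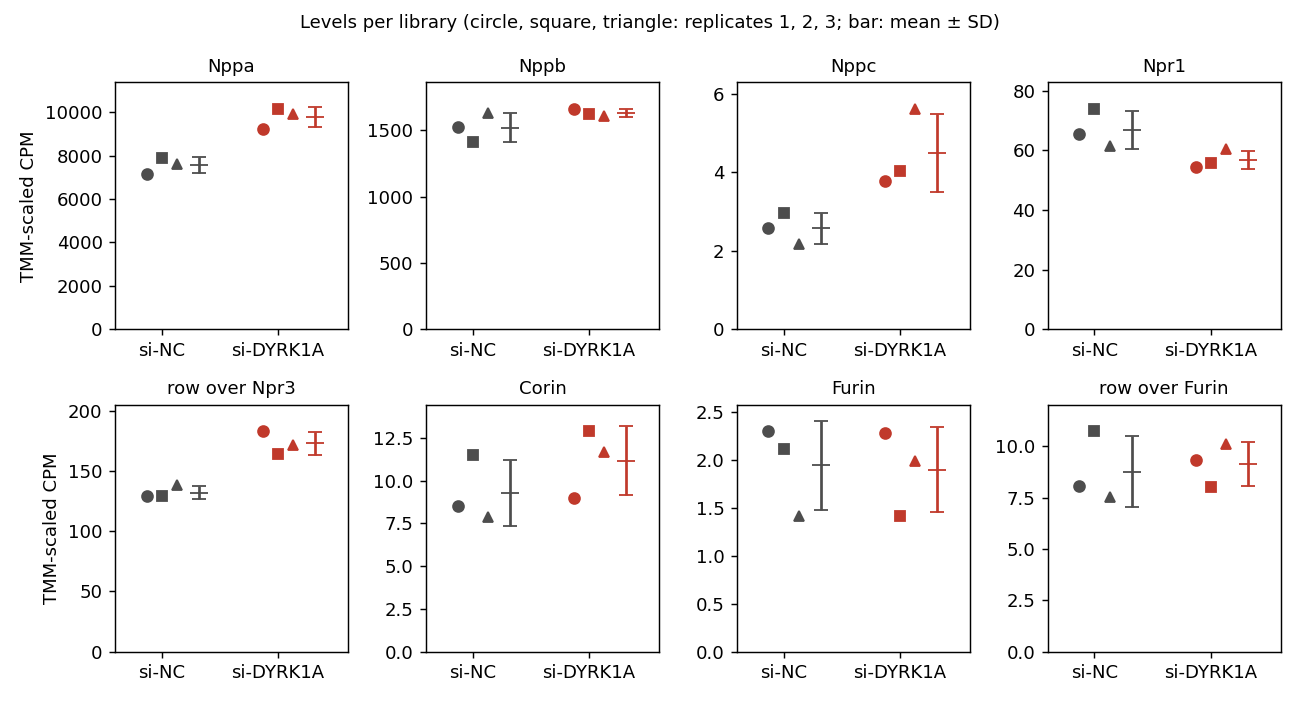
Levels of the tested members in each library, in TMM-scaled CPM on axes that start at 0, with circles, squares and triangles for replicates 1, 2 and 3, si-NC in grey, si-DYRK1A-labelled libraries in red, and bars for the mean and SD of each group. The groups do not overlap for Nppa, Nppc, Npr1 and the unannotated row over Npr3, and they do for Nppb, Corin, Furin and the unannotated row over Furin.

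The balance of the 2 cardiac peptides was read within each library, where scaling between libraries cancels. Nppa had 4.70, 5.59 and 4.69 counts per count of Nppb in si-NC and 5.57, 6.28 and 6.18 in the si-DYRK1A-labelled libraries. The groups overlapped narrowly, as si-NC replicate 2 (5.59) lay just above si-DYRK1A replicate 1 (5.57). On the log2 scale the ratio was 2.31 ± 0.146 and 2.58 ± 0.0943 (SD, n = 3 each), and the difference of 0.27 gave p = 0.2 in the exact two-sided permutation test, whose smallest value with 3 against 3 is 0.1. The test therefore did not show that Nppa differed from Nppb in its response, although one passed the edgeR test and the other did not.

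Nppc was scarce, yet higher in the si-DYRK1A-labelled libraries. It had 27, 35 and 26 counts in si-NC and 43, 43 and 65 counts in the other group, or 2.59, 2.96 and 2.17 CPM against 3.78, 4.05 and 5.63 CPM. Every si-DYRK1A-labelled library lay above every si-NC library, with replicate 3 the highest. On the log2 scale the fold change was 0.80 with an SE of 0.241 (95% confidence interval 0.30 to 1.30), or 1.74-fold (1.23 to 2.46), with an adjusted p of 0.0264 by edgeR. This call rested on few counts. It was lost without si-NC replicate 1 (adjusted p = 0.0698) or 3 (0.0973) and without si-DYRK1A replicate 2 (0.0522) or 3 (0.187) in the same edgeR test, and DESeq2 gave an adjusted p of 0.114 (0.023 to 0.187 over all 17 alternatives). Nppc (ENSRNOG00000018854, chromosome 9, 93731436 to 93735636, minus strand) overlaps Dis3l2 of the plus strand, a row of 21 to 61 counts per library. Because the strand setting of the counting is not given, reads of both genes may not be separable.

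Of the 6 named members with enough counts for the test, 2 were higher (Nppa and Nppc), 1 was lower (Npr1) and 3 were not called (Nppb, Corin and Furin). Among the 2 unannotated rows tested, the one over Npr3 was higher and the one over Furin was not called. Over all features tested, 15.2% were called, 8.03% higher and 7.19% lower, and 31.5% had groups that did not overlap. With so few members their counts are given as a description beside these shares. The called members differed by 0.24 to 0.80 on the log2 scale in size, where the median size over all called features was 0.38.

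**Figure D2:**
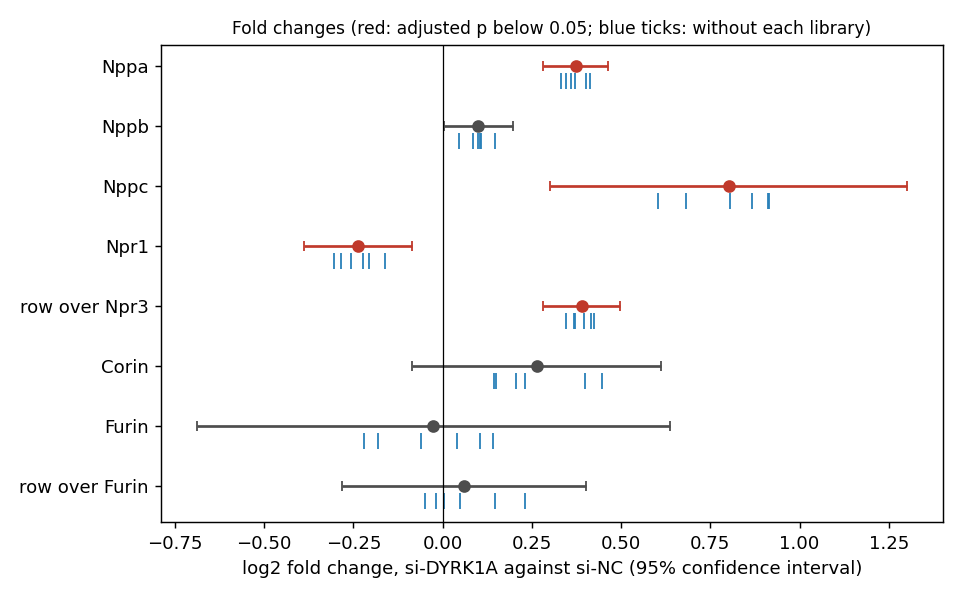
Log2 fold changes of the tested members, si-DYRK1A-labelled libraries against si-NC, with 95% confidence intervals from the edgeR fit and blue ticks for the value without each library. Red points passed the test, and the ticks of Nppa and the unannotated row over Npr3 stay between 0.33 and 0.43, whereas those of Furin lie on both sides of 0.

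The receptors moved apart in level. Npr1 encodes the receptor of ANP and BNP, which makes cGMP, and it had 681, 874 and 736 counts in si-NC and 617, 591 and 697 counts in the si-DYRK1A-labelled libraries. The scaled levels were 65.3, 73.9 and 61.5 CPM against 54.3, 55.6 and 60.3 CPM. The highest library of the si-DYRK1A-labelled group lay just under the lowest si-NC library. The means were 66.9 ± 6.34 CPM and 56.7 ± 3.17 CPM (SD, n = 3 each), a log2 fold change of -0.24 (SE 0.0728, 95% confidence interval -0.39 to -0.09, adjusted p = 0.0292 by edgeR). The call was lost without si-NC replicate 1 (adjusted p = 0.0579) or 2 (0.163) and without si-DYRK1A replicate 1 (0.118) or 2 (0.119), and DESeq2 gave an adjusted p of 0.0736 at a log2 fold change of -0.24 (0.00452 to 0.236 over all 17 alternatives). Npr1 (ENSRNOG00000014684) lies on the minus strand of chromosome 2, from 189840403 to 189856090.

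Markers of endothelial and endocardial cells, which also express Npr1, were lower in the same libraries. Of the 6 markers measured, all had a negative log2 fold change (median -0.46) and 3 passed the edgeR test. Tek, the angiopoietin receptor, fell from 50.2 ± 0.949 CPM to 29.8 ± 1.17 CPM (log2 fold change -0.75, adjusted p = 3.5e-07 by edgeR). Tie1 fell by 0.43 on the log2 scale (adjusted p = 0.00125 by edgeR) and Cdh5, the cadherin of endothelial junctions, fell by 0.31 (adjusted p = 0.0129 by edgeR). The call of Cdh5 was lost without si-NC replicate 1 (adjusted p = 0.0531) and without si-DYRK1A replicate 1 (0.0606) or 3 (0.0668) in the edgeR test. Kdr lay at 37.0 ± 4.80 CPM and 36.7 ± 2.62 CPM, a log2 fold change of -0.01. Vwf (-0.53) and Plvap (-0.48) did not pass. The summed level of the 6 markers was 170 to 189 CPM in si-NC and 136 to 142 CPM in the si-DYRK1A-labelled libraries, and none of the 6 was near 0. Their part in the lower level of Npr1 was not tested.

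The named row of Npr3 (ENSRNOG00000019184, chromosome 2, 61888950 to 61949926, minus strand), the clearance receptor, was at 0 in every library. An unannotated row that covers the whole gene and overlaps no other annotated gene of that strand (61883705 to 61951457) had 1346, 1523 and 1653 counts in si-NC and 2081, 1744 and 1983 counts in the si-DYRK1A-labelled libraries. These were 129, 129 and 138 CPM against 183, 164 and 172 CPM, with a clear gap between the groups. The means were 132 ± 5.36 CPM and 173 ± 9.47 CPM (SD, n = 3 each), a 1.31-fold difference (95% confidence interval 1.22 to 1.41). On the log2 scale the fold change was 0.39 with an SE of 0.0517 (95% confidence interval 0.28 to 0.50, adjusted p = 1.63e-05 by edgeR). It kept its direction and its call in all 17 alternatives that could change it, with log2 fold changes of 0.35 to 0.42 and adjusted p between 5.22e-11 and 0.0325 across the edgeR, DESeq2 and limma fits. Whether all of its reads come from the bases of Npr3 is not known from the table.

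The balance of the receptor transcripts was read per length. The authors' length is 8058 bases for the unannotated row over Npr3, 2043 bases for the named row of Npr3 and 4068 bases for Npr1, so that the size of this ratio depends on the length taken, while its change between the groups does not. The FPKM of the unannotated row over Npr3 divided by that of Npr1 was 0.998, 0.880 and 1.13 in si-NC replicates 1, 2 and 3. In the si-DYRK1A-labelled libraries it was 1.70, 1.49 and 1.44. The groups did not overlap, with means of 1.00 ± 0.127 and 1.54 ± 0.141 (SD, n = 3 each) and a difference of the mean log2 ratio of 0.62, or 0.53 to 0.72 with each library left out. The pair was chosen after its 2 differences had been seen, so that this is a description without a test.

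**Figure D3:**
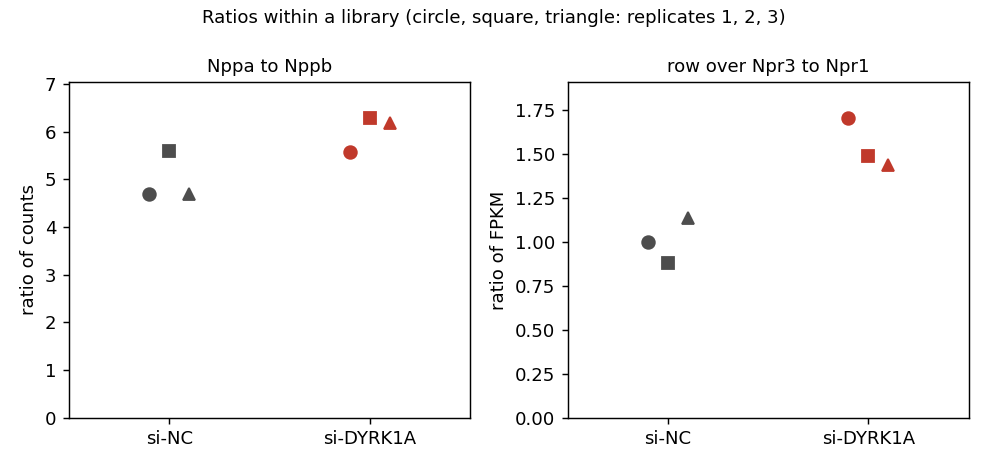
Ratio of Nppa to Nppb counts (left) and of the FPKM of the unannotated row over Npr3 to that of Npr1 (right) in each library, with circles, squares and triangles for replicates 1, 2 and 3 and axes that start at 0. The Nppa to Nppb ratios overlap at 5.59 and 5.57, and the receptor ratios of the si-DYRK1A-labelled libraries (1.44 to 1.70) lie above those of si-NC (0.880 to 1.13).

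Npr2, the receptor of CNP, could not be compared. Its named row (ENSRNOG00000015991, chromosome 5, 59128315 to 59147255, plus strand) was at 0 in every library. The unannotated row of the same span had 0, 3 and 2 counts in si-NC and 0, 1 and 1 counts in the si-DYRK1A-labelled libraries, 7 in all. At this depth Nppc and both rows of Npr2 were thus counted at low level or near 0, whereas ANP and BNP precursors were among the most abundant transcripts. Low counts in both rows do not show that Npr2 was silent. Ryr2, a gene of heart muscle, also stayed at no more than 1.09 CPM in its own row and in the unannotated row over it.

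The proteases did not pass the test. Corin (ENSRNOG00000002302, chromosome 14, 38247791 to 38473648, plus strand) had 89, 136 and 94 counts in si-NC and 102, 137 and 135 counts in the si-DYRK1A-labelled libraries. In CPM these were 8.53, 11.5 and 7.86 against 8.97, 12.9 and 11.7, and the groups overlapped. On the log2 scale the fold change was 0.26 with an SE of 0.167 (95% confidence interval -0.08 to 0.61, adjusted p = 0.334 by edgeR). With each library left out it was 0.145 (without si-NC replicate 3) to 0.446 (without si-NC replicate 2), and it passed in none of these edgeR fits. The interval thus reaches from a small decrease to an increase larger than that of Nppa.

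Furin (ENSRNOG00000011352, chromosome 1, 142185094 to 142197182, minus strand) had 24, 25 and 17 counts in si-NC and 26, 15 and 23 counts in the si-DYRK1A-labelled libraries, and the groups overlapped (log2 fold change -0.03, 95% confidence interval -0.69 to 0.64, adjusted p = 0.973 by edgeR). An unannotated row over it (142185094 to 142198662) held 82.4% of the counts of both rows, with 84, 127 and 90 counts against 106, 85 and 117. Its log2 fold change was 0.06 (SE 0.165, adjusted p = 0.861 by edgeR). The sum of both rows gave 0.04 (95% confidence interval -0.27 to 0.36, adjusted p = 0.892 by edgeR). For each of the 2 rows taken alone, the sign changed with the library left out.

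Levels between genes are given per length, in FPKM. In si-NC, Nppa (8468 ± 442 FPKM) stood above Nppb (2248 ± 159 FPKM), and both stood far above the other members (SD, n = 3 each). Npr1 (16.4 ± 1.59 FPKM) and the unannotated row over Npr3 (16.3 ± 0.666 FPKM, over its length of 8058 bases) did not differ beyond their spread in si-NC. In the si-DYRK1A-labelled libraries they lay at 13.8 ± 0.766 FPKM and 21.3 ± 1.15 FPKM. Nppc (2.51 ± 0.387 FPKM), Corin (2.49 ± 0.526 FPKM) and the unannotated row over Furin (1.88 ± 0.374 FPKM) overlapped in si-NC, and the named row of Furin was the lowest of the tested members (0.453 ± 0.108 FPKM). The precursor Nppa was thus more than 3 orders of magnitude above its protease Corin in FPKM.

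**Figure D4:**
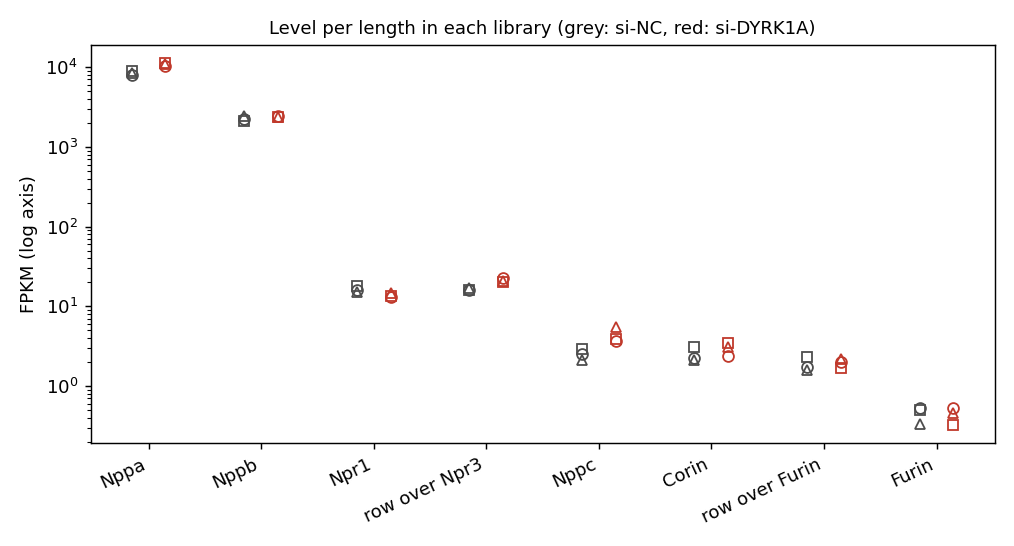
FPKM of each tested member in each library on a log axis, with circles, squares and triangles for replicates 1, 2 and 3, si-NC in grey and si-DYRK1A-labelled libraries in red. Nppa (8468 FPKM in the mean of si-NC) and Nppb (2248 FPKM) stand apart from the receptors near 16 FPKM and from Nppc, Corin and Furin below 6 FPKM.

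The genes around Nppa and Nppb on chromosome 5 did not all move with Nppa. Within 100 kb, Plod1, a collagen lysyl hydroxylase, lay at 451 ± 13.1 CPM in si-NC and 358 ± 5.10 CPM in the si-DYRK1A-labelled libraries (SD, n = 3 each), a fall in all 3 (log2 fold change -0.33, adjusted p = 7.81e-06 by edgeR). Agtrap, which encodes an angiotensin receptor-associated protein, fell by 0.18 on the log2 scale (adjusted p = 0.0326 by edgeR), and its call was lost without si-NC replicate 1 (0.0738) or 2 (0.0695) and without si-DYRK1A replicate 2 (0.0865) or 3 (0.194). RGD1305350, next to Nppb, did not pass (0.11, adjusted p = 0.136 by edgeR), and Clcn6, next to Nppa, had 7 to 17 counts per library. The called genes Plod1 and Agtrap thus lay lower in the libraries where Nppa lay higher.

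The annotated genes whose log2 CPM followed a peptide most closely over the 6 libraries were sought among the 3595 genes whose mean log2 CPM reached 5. For Nppa these were Sulf2 (Pearson r = 0.994), Tfdp1 (r = 0.989) and Cops8 (r = 0.986). For Nppb they were Mrps36 (r = 0.998), Ndufb5 (r = 0.996) and Rpl35 (r = 0.985). The 6 libraries fall into 2 groups, and the difference between the groups is part of each value for Nppa. These are the highest of many correlations over few libraries that share their scaling, and they are given as a description.

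Genes of the pathway around the peptides were read as lists. For some genes whose own row could not be tested, an unannotated row over the gene was used and counted as measured. Unannotated rows over others, among them Tbx20, Tnni3, Myh6 and Myh7, were left out of the counts and medians. Of the effectors of cGMP and the phosphodiesterases that break it down, 13 of 14 were measured, 2 were higher, none was lower and the median log2 fold change was 0.15, where the median over all features tested was 0.00. Rgs2, which limits signalling of Gq-coupled receptors, lay at 67.1 ± 2.36 CPM in si-NC and 80.3 ± 2.84 CPM in the si-DYRK1A-labelled libraries (log2 fold change 0.26, adjusted p = 0.004 by edgeR), and it kept its call without each library. Pln, phospholamban, the regulator of the calcium pump, lay at 397 ± 27.3 CPM and 440 ± 16.6 CPM (log2 fold change 0.15, adjusted p = 0.0471 by edgeR), and it kept the call only without si-NC replicate 3 (0.0551 to 0.217 without each other library). The unannotated row over Pde3a, which degrades cAMP and is inhibited by cGMP, lay at 76.0 ± 6.13 CPM and 80.4 ± 3.32 CPM (adjusted p = 0.458 by edgeR).

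Other guanylyl cyclases gave no call among 4 of 8 measured (median 0.05). Gucy1a1 and Gucy1b1, the subunits of the nitric oxide receptor, lay at 101 ± 6.56 CPM and 91.0 ± 1.40 CPM in si-NC and at 104 ± 6.50 CPM and 91.5 ± 3.15 CPM in the si-DYRK1A-labelled libraries. Their confidence intervals on the log2 scale were -0.08 to 0.16 and -0.10 to 0.12. Gucy1a2, an alternative subunit, had a log2 fold change of 0.29 (adjusted p = 0.198 by edgeR).

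Among other genes of processing, secretory granules and clearance, 8 of 14 were measured, 1 was higher and 2 were lower (median 0.07). The unannotated row over Pcsk7, a convertase related to furin, fell from 48.4 ± 0.784 CPM to 37.9 ± 3.75 CPM (log2 fold change -0.35, adjusted p = 0.00361 by edgeR) and kept its call without each library. Pcsk5, another convertase, fell by 0.19 (adjusted p = 0.0414 by edgeR), and Scg2, a granule protein, rose by 0.52 from 5.76 ± 1.09 CPM (adjusted p = 0.0494 by edgeR). Pcsk5 kept its call only without si-NC replicate 3 (0.0521 to 0.179 without each other library), and Scg2 only without si-NC replicate 2 (0.0629 to 0.19 without each other library). Chga, Chgb and Ostn, the last encoding osteocrin, a ligand of the clearance receptor, had too few counts for the test.

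Of the transcription factors described at the natriuretic peptide genes, 15 of 18 were measured, 3 were higher and none was lower (median 0.14). The unannotated row over Tbx20, which was left out of these counts, also passed the edgeR test and was higher in the si-DYRK1A-labelled libraries. Srf, the serum response factor, lay at 54.6, 54.5 and 53.7 CPM in si-NC and 60.8, 75.4 and 76.0 CPM in the si-DYRK1A-labelled libraries (log2 fold change 0.38, adjusted p = 0.00161 by edgeR). Myocd, its cardiac coactivator myocardin, lay at 75.8, 82.2 and 68.5 CPM against 94.9, 90.4 and 91.7 CPM (log2 fold change 0.29, adjusted p = 0.00273 by edgeR). Both had groups without overlap and kept their calls without each library. The unannotated row over Mef2c rose by 0.50 from 5.35 ± 0.0975 CPM (adjusted p = 0.0462 by edgeR), and its call was lost when any 1 library was left out (0.0843 to 0.127). Gata4 (0.30, adjusted p = 0.2) and Nkx2-5 (0.14, adjusted p = 0.421), named after their values had been seen, did not pass the edgeR test.

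The genes usually measured with Nppa and Nppb in cardiomyocyte growth went in both directions, with 2 higher and 1 lower among 8 of 11 measured (median 0.08). Atp2a2, the calcium pump of the sarcoplasmic reticulum, rose from 3222 ± 89.2 CPM to 3850 ± 93.5 CPM (log2 fold change 0.26, adjusted p = 6.64e-05 by edgeR). Xirp2, a protein of the intercalated disc, fell from 269 ± 19.8 CPM to 170 ± 11.6 CPM (log2 fold change -0.66, adjusted p = 5.17e-07 by edgeR). Actc1 rose by 0.13 (adjusted p = 0.0193 by edgeR), and the call was lost without si-NC replicate 1 (0.0503) and without si-DYRK1A replicate 2 (0.0564) or 3 (0.168). Acta1, the skeletal actin, and Ankrd1, both named after their values had been seen, differed by 0.00 (95% confidence interval -0.10 to 0.11) and 0.03 (-0.05 to 0.11). The unannotated row over Myh6 and Myh7, which cannot be divided between the 2 myosins, had a log2 fold change of -0.11 (adjusted p = 0.679 by edgeR).

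The lists of atrial and ventricular genes were short, and whether each gene separates the chambers in these cultures was not tested. Of the genes listed as atrial, 3 of 7 were measured and 1 was higher. This was Bmp10, a growth factor of atrial muscle, which rose from 1.14 ± 0.195 CPM to 2.67 ± 0.962 CPM (log2 fold change 1.22, adjusted p = 0.0166 by edgeR). That call was lost without si-NC replicate 3 (0.0638) or si-DYRK1A replicate 1 (0.147). Stard10 (0.07) and the unannotated row over Tbx18 (0.14) did not pass. Of the genes listed as ventricular, 5 of 6 were measured, with Irx4 higher (0.27, adjusted p = 0.00537 by edgeR) and Mypn lower (-0.60, adjusted p = 8.18e-05 by edgeR). Myl3, at 2362 ± 141 CPM and 2188 ± 18.4 CPM, did not pass (-0.11, adjusted p = 0.0878 by edgeR).

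Of the ligands and receptors whose signalling raises Nppa or Nppb in cultured cardiomyocytes, 6 of 11 were measured, 1 was higher and 1 was lower (median 0.08). The unannotated row over Edn1, which encodes endothelin, rose from 13.1 ± 0.764 CPM to 17.2 ± 0.160 CPM (log2 fold change 0.39, adjusted p = 0.0165 by edgeR), and it lost the call without si-NC replicate 3 (0.0714) and without si-DYRK1A replicate 1 (0.0522), 2 (0.0646) or 3 (0.0528). Lifr, the receptor of leukaemia inhibitory factor, fell from 90.7 ± 1.44 CPM to 68.2 ± 2.88 CPM (log2 fold change -0.41, adjusted p = 2.73e-05 by edgeR) and kept its call without each library. Nrg1, a neuregulin, was not called in its own row (0.38, adjusted p = 0.52 by edgeR), which is the row counted in the list. An unannotated row over Nrg1 rose from 35.2 ± 0.720 CPM to 59.7 ± 4.50 CPM (0.76, adjusted p = 2.9e-07 by edgeR).

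Markers of the cell types that these cultures could hold moved unevenly. Among cardiomyocyte markers 4 of 8 were measured and 1 was higher, Actn2 (0.31, adjusted p = 4.58e-05 by edgeR), whereas Tnnt2 (-0.14) and the unannotated rows over Myl2 (-0.04) and Mybpc3 (0.46) did not pass, with a summed level of 1307 to 1474 CPM in si-NC and 1662 to 1728 CPM in the si-DYRK1A-labelled libraries. Fibroblast markers gave 2 higher of 6 measured, Lum (0.59, adjusted p = 1.21e-08 by edgeR) and Postn (1.10, adjusted p = 2.39e-05 by edgeR), and summed to 21530 to 26240 CPM and 20370 to 21110 CPM. Col1a1 (-0.37, adjusted p = 0.0869 by edgeR), Col3a1 (0.02), Dcn (0.25) and Tcf21 (0.14) did not pass. The si-DYRK1A-labelled libraries all lay below si-NC for Col1a1. An unannotated row over Dcn, whose own row is the one counted, was also higher (1.00, adjusted p = 0.0311 by edgeR). That over Postn did not pass (0.39, adjusted p = 0.47 by edgeR). Smooth muscle and pericyte markers gave 1 higher of 3 measured, the unannotated row over Rgs5 (0.55, adjusted p = 1.34e-05 by edgeR), and summed to 596 to 608 CPM and 609 to 637 CPM. Tagln (-0.66) and Cnn1 (-0.01) did not pass. Macrophage markers gave 1 higher of 4 measured, Cd163 (0.87, adjusted p = 0.00415 by edgeR, lost without si-DYRK1A replicate 2 at 0.0624), while Csf1r (-0.13), Ptprc (-0.21) and Adgre1 (-0.54) did not pass, and summed to 102 to 114 CPM and 96.1 to 107 CPM. Their part in the levels of the peptide genes was not tested. The higher summed level of cardiomyocyte markers rests largely on Actn2. The unannotated rows over Tnni3 (-0.02) and over Myh6 and Myh7 (-0.11), which are not counted in the list, did not pass.

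**Figure D5:**
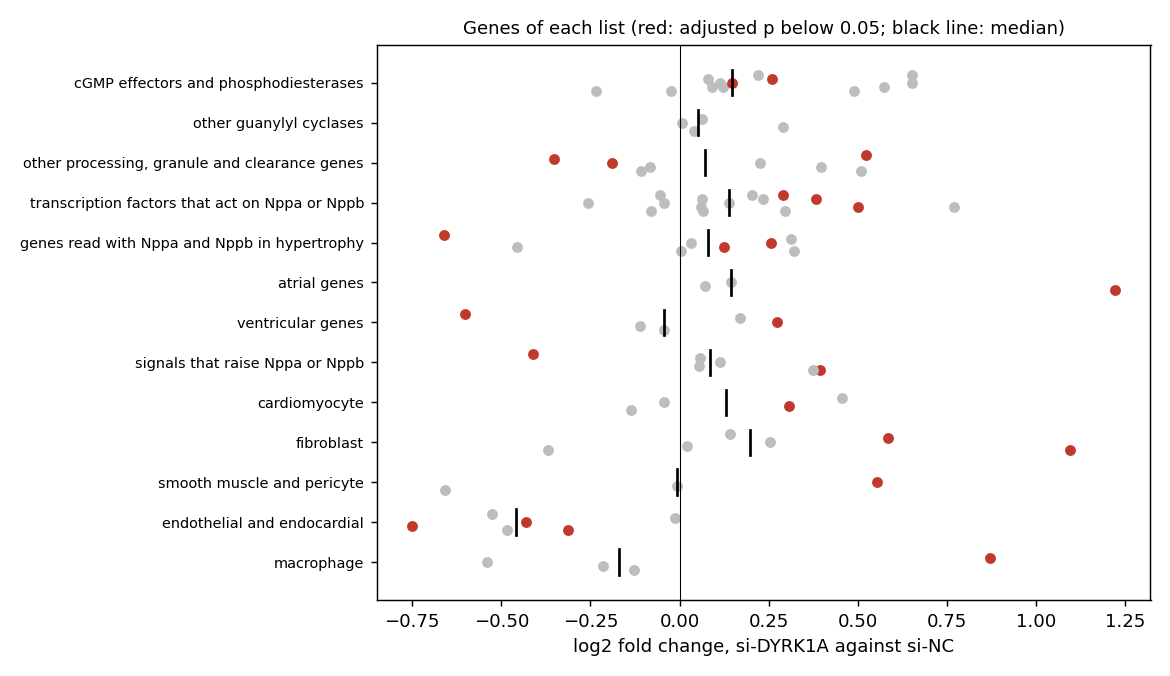
Log2 fold changes of the measured genes of each list, si-DYRK1A-labelled libraries against si-NC, with red points for genes that passed the edgeR test and a black line at the median of the list. Most medians lie between -0.05 and 0.20, and the lowest is that of the endothelial and endocardial markers at -0.46.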

How the data were processed

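RNA-seq libraries of rat neonatal cardiomyocytes, 3 of si-NC and 3 labelled si-DYRK1A, were grouped by their sample labels. Reads were mapped by the authors with HISAT2 to the rat assembly Rnor_6.0. The authors deposited raw counts for each feature, of which 10152 are unannotated transcripts, and FPKM, which divide counts by gene length and library size. The labels' processing notes name Bowtie 0.12.2 and the mouse build mm8, whereas the features carry rat identifiers. The counting software is not given in the sources used here, nor the annotation release or strand setting. The labels name a TruSeq kit and the methods a NEBNext kit. A feature counted without regard to strand, or split between a named and an unannotated row, can be under- or overstated.

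The counts were tested with edgeR 4.0.16 in R 4.3.3 (quasi-likelihood, robust, TMM, filterByExpr with a minimum count of 10 and a total of 15), two-sided, with Benjamini-Hochberg adjustment over all 15513 features tested and a threshold of 0.05. Confidence intervals are 95%. Counts and depth of 10325074 to 11921772 per library limit precision for features such as Nppc and Furin. Single values were compared by exact permutation. Alternatives were DESeq2 1.42.0, other scalings and filters, a replicate block, each library left out, limma-voom (limma 3.58.1), limma on log2(FPKM + 1) and log2(FPKM + 0.1), and sums with unannotated rows. Unannotated rows were assigned to genes by overlapping coordinates on the same strand, and GenomicRanges 1.54.1 was among the tools used. Scripts were tested on simulated counts. The members and lists were chosen with earlier results of these data known, and reading lists through unannotated rows was added after the data had been seen. The genes named were all members, list genes called and, up to 3 per list, the most abundant, 3 genes most alike Nppa and Nppb, and annotated genes within 100 kb of them, of which some are not reported here. Same-numbered replicates did not deviate together (correlations of 0.06, -0.03 and -0.00, against -0.06 to 0.06 between different numbers), and the main fit was unpaired. This cannot exclude that same-numbered libraries shared a cell preparation. Promoters are RefSeq's. The p-values weigh a difference between the groups against the spread between these libraries, as each test takes it.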

Additional observations from a re-analysis of the deposited data

How the results depend on the processing

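The direction and call of the unannotated row over Npr3 held in all 17 alternatives that could change it, and those of Nppa in 16 of 17, the exception being limma on log2(FPKM + 1) without a filter (adjusted p = 0.098). Nppc and Npr1 kept their direction in all 17 but their call in only 8, Nppb passed in 1 of 17 and Corin in none. The count of all features called, 2360 by edgeR, was 1544 by DESeq2, 1197 by limma on log2(FPKM + 1), 1162 on log2(FPKM + 0.1), 667 without the FPKM filter and 1307 at an adjusted p below 0.01, and 1614 to 2210 with each library left out. Of the 8 named members, 1 was higher by DESeq2, limma-voom, limma on log2(FPKM + 1) and log2(FPKM + 0.1) and at an adjusted p below 0.01, 0 on log2(FPKM + 1) without the filter, and 1 to 2 with each library left out. The row over Npr3 was higher in each of these. The count of named members lower was 0 in those 6 fits (limma, DESeq2, edgeR) and 0 to 1 with each library left out. The 2 peptides' log2 ratio differed by 0.227 to 0.354 with each library left out. Without each library, the log2 fold change of Furin ran from -0.219 to 0.142 and that of the row over it from -0.0488 to 0.232, and their sum gave 0.0449. The cause of these changes was not tested. With library size only, the median over all features was -0.02 and 1063 features were higher and 1339 lower (1258 and 1315 without a filter on counts), against 1245 and 1115, while no member changed direction. The replicate block gave 2269 features called and changed no member's call. Few counts (7 in all over Npr2, 130 for Furin and 609 for the unannotated row over it) limit what could be seen in these genes.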
